A study of Mus musculus with 3 samples.

Results

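The genes described here are 7 thymopoietic factors, the secreted or cell-surface proteins with which the thymic stroma recruits, feeds and expands developing T cells: Kitl, Il7, Flt3l, Il15, Cxcl12, Ccl25 and Igf1. They are 7 of the 32293 features of the count matrices (32285 mouse genes and 8 transgenes), chosen by name as known thymopoietic factors, and each matched 1 feature. The question was which class of stromal cell supplies each of them in the aged thymus. Stromal cells were classed by marker UMIs (unique molecular identifiers, counted transcripts) in each cell barcode. Thymic epithelial cells (TEC) had at least 2 UMIs of Epcam, endothelial cells (EC) at least 2 of Pecam1, fibroblasts (FB) at least 2 of Pdgfra, mural cells, the muscle cells and pericytes of vessel walls, at least 5 of Rgs5 and Acta2 together, and mesothelial cells, which line the capsule, at least 2 of Upk3b. Barcodes that met more than 1 rule were left out.

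The study made single-cell RNA sequencing libraries of nonhematopoietic (CD45-) thymus cells from untreated 20-month-old C57BL/6 mice, the thymi of several mice pooled for each. There were 3 libraries, each the sole library of its group: Foxn1Lin female and Foxn1Lin male, in which Cre under Foxn1, a transcription factor gene of TEC, switches on a tdTomato reporter, and wild-type (WT) male. Genotype and sex can therefore not be told apart from the library, and no difference between libraries was tested. The WT library is labelled CD45- in its title and CD45-PECAM1+ as a cell type, yet EC were not the main class in it, and the protocol text of the labels speaks of female mice for all libraries.

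Thymocytes pass from the vessels through the cortex to the medulla, and each step draws on stromal signals. KIT ligand (Kitl, stem cell factor), FLT3 ligand (Flt3l), interleukin-7 (Il7) and interleukin-15 (Il15) bind receptors on progenitors and lymphocytes and support their survival and division. The chemokines CXCL12 and CCL25 attract cells that carry CXCR4 and CCR9, and insulin-like growth factor 1 (Igf1) is a general growth hormone that stromal cells also make locally.

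The filtered libraries held 53366016, 33386621 and 61258534 UMIs in 8616, 3583 and 5478 barcodes (Foxn1Lin female, Foxn1Lin male and WT male, the order used throughout). After a filter on poor barcodes there were 464, 426 and 867 TEC, 1879, 818 and 857 EC, 1852, 864 and 1707 FB and 426, 449 and 352 mural cells. Mesothelial cells numbered 338, 0 and 36, so their values rest on 2 libraries and the WT ones on few barcodes. Markers that did not set the classes went with the names: 7 further TEC markers summed to 6292 to 7812 CPM (counts per 1000000 UMIs) in TEC and at most 400 in EC, FB and mural cells. The EC, FB and mural lists were likewise highest in their own class. Mesothelial barcodes had 2953 and 3238 CPM of their own list but also 9530 and 10298 CPM of FB markers and 2156 and 1083 CPM of TEC markers. Markers of blood cells summed to 448 to 815 CPM in TEC and to at most 207 CPM in the other classes. Libraries shared between 3 and 14 barcodes.

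In every class sum the level of a factor was taken as CPM of the summed UMIs, with a 95% exact Poisson interval that covers counting error alone. Classes were compared over the libraries with edgeR's quasi-likelihood test, each class against the mean of the other 4, with the library as a block and Benjamini-Hochberg adjusted P over all 17595 genes tested. All 7 factors passed the expression filter. The background of such contrasts was high. In TEC 32.2% of all genes tested were called higher and 23.1% lower, in EC 23.3% and 20.1%, in FB 18.9% and 13.3%, in mural cells 17.1% and 12.1%, and in mesothelial cells 13.0% and 11.5%. Of the 7 factors, 3 were higher and 2 lower in TEC, 3 higher and 2 lower in EC, 2 higher and 1 lower in FB, 0 higher and 2 lower in mural cells, and 0 higher and 3 lower in mesothelial cells. For mural cells the number higher was 0 also at an unadjusted P of 0.05 and with DESeq2, and for mesothelial cells it was 1 and 0. With 7 genes, these counts are a description and set the factors apart from no background.

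**Figure D1:**
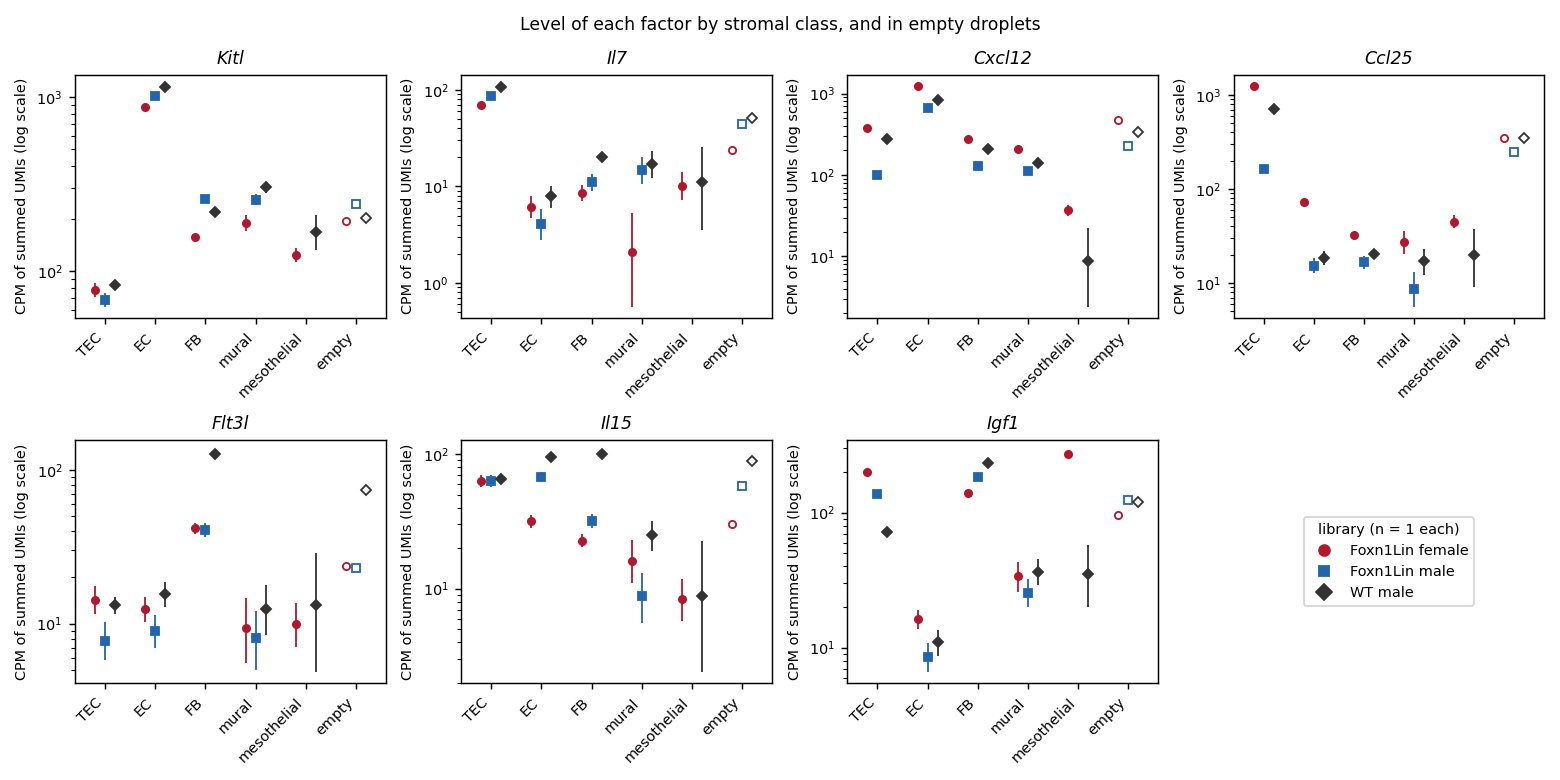
CPM of summed UMIs (log axis) of each factor in the 5 stromal classes and in empty droplets, 1 point per library with 95% exact Poisson intervals for the classes. Kitl and Cxcl12 peak in EC, Il7 and Ccl25 in TEC and Flt3l in FB in all 3 libraries, while the top class of Il15 and Igf1 differs between libraries.

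Kitl, which holds KIT-bearing progenitors alive, was an endothelial transcript. EC had 878, 1007 and 1136 CPM (mean 1007 ± 129 SD, n = 3 libraries). FB had 157, 260 and 218 CPM, mural cells 188, 258 and 304, and TEC 78.1, 68.8 and 83.0. The lowest EC library thus lay above the highest library of any other class, and TEC were the lowest class in each library. Kitl was 2.84 ± 0.13 log2 units (SE) higher in EC than in the mean of the other classes (edgeR adjusted P = 6.793e-08) and fell by 2.25 ± 0.17 in TEC (edgeR adjusted P = 1.206e-06). In mesothelial cells, with 124 and 167 CPM in the 2 libraries that had them, it was also lower (log2 fold change -0.79 ± 0.19, edgeR adjusted P = 0.01002). That call was lost at a class minimum of 1 UMI (edgeR adjusted P = 0.1007). It was also lost without the WT library (-0.62) and with at least 50 barcodes per sum (-0.68), each of which left the Foxn1Lin female sum alone.

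Most single EC carried it. After each barcode was thinned to 2000 UMIs, 71.7%, 70.6% and 74.1% of EC had a Kitl UMI, against 30.4%, 37.6% and 40.2% of mural cells, 21.9%, 28.8% and 24.9% of FB and 9.54% to 12.2% of TEC. Without thinning the shares were 83.1%, 90.1% and 90.2% in EC, where median depth was 3856 to 7380 UMIs, and 28.2% to 41.6% in TEC, where it was 10965 to 16229 UMIs. Empty droplets held 194, 242 and 201 CPM of Kitl, above the level in TEC in each library. In the order of levels, EC lay 2.08 ± 0.18 log2 units above mural cells (edgeR adjusted P = 1.064e-05, where 37.2% of all genes differed). Mural cells and FB could not be told apart (0.22 ± 0.18, edgeR adjusted P = 0.3877, 28.4% of all genes differing), nor could FB and mesothelial cells (0.60 ± 0.21, edgeR adjusted P = 0.06756, 21.5% of all genes differing). Mesothelial cells lay above TEC (1.17 ± 0.21, edgeR adjusted P = 0.001322, 37.8% of all genes differing). The threshold of the EC class bore on the level. Barcodes with exactly 2 Pecam1 UMIs had 736, 818 and 888 CPM of Kitl. Those with 1, which were left out, had 440, 1057 and 436 CPM, lower in Foxn1Lin female and WT male but higher in Foxn1Lin male.

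Il7, the cytokine that early thymocytes need to survive, was an epithelial transcript at a low level. TEC had 70.5, 86.5 and 106 CPM (87.8 ± 17.9 SD, n = 3). EC had 6.20, 4.07 and 7.90 CPM, FB 8.60, 11.0 and 20.4, mural cells 2.08, 14.9 and 17.0, and mesothelial cells 10.2 and 11.0. Each TEC library was above all others. EC lay below FB and mesothelial cells in every library, while mural cells overlapped with all 3. Il7 was 2.79 ± 0.27 log2 units higher in TEC (edgeR adjusted P = 7.525e-06) and fell by 1.55 ± 0.34 in EC (edgeR adjusted P = 0.003602). The EC call was lost without the WT library (edgeR adjusted P = 0.06596). TEC lay 2.45 ± 0.36 log2 units above FB, the next class (edgeR adjusted P = 0.000212, 55.0% of all genes differing), and no pair of neighbours below that was called different. The thinned share of positive barcodes was 11.5%, 16.4% and 18.3% in TEC and 0.504% to 3.86% in EC, FB, mural and mesothelial cells. Empty droplets held 24.0, 44.1 and 51.3 CPM of Il7, above the level in every class but TEC. An antisense gene, Gm16685, overlaps Il7 on the other strand.

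Flt3l, which drives FLT3-bearing progenitors and dendritic cells, was a fibroblast transcript. FB had 41.7, 40.9 and 127 CPM (69.9 ± 49.4 SD, n = 3), and the other classes lay between 7.77 and 15.5 CPM in all libraries. The WT library was thus the high one in FB, and even the lower FB libraries lay above every other class. Flt3l was 2.63 ± 0.20 log2 units higher in FB (edgeR adjusted P = 4.252e-06) and fell by 0.85 ± 0.24 in TEC (edgeR adjusted P = 0.01048), a call that was lost without the Foxn1Lin male library (edgeR adjusted P = 0.07454) and without scaling (-0.52, edgeR adjusted P = 0.0796). FB lay 2.34 ± 0.27 log2 units above EC (edgeR adjusted P = 5.191e-05, 39.6% of all genes differing), and EC, mesothelial cells, mural cells and TEC, in that order, were not called different from their neighbours (34.5%, 26.8% and 48.7% of all genes differing). Empty droplets held 23.7, 23.0 and 74.2 CPM, higher in the WT library as FB were. Whether genotype, sex or the library set that difference was not tested.

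Il15, which supports natural killer cells and some intraepithelial T cell lineages, had no single source. TEC had a like level in each library, 63.3, 63.4 and 65.8 CPM (64.2 ± 1.42 SD, n = 3). EC had 31.7, 67.3 and 94.9 CPM and FB 22.7, 32.1 and 101 CPM. TEC were therefore the highest class in Foxn1Lin female, EC and TEC overlapped in their intervals in Foxn1Lin male, and FB and EC exceeded TEC in WT male. Against the mean of the others Il15 was higher in EC (1.37 ± 0.30, edgeR adjusted P = 0.003599) and in TEC (1.08 ± 0.30, edgeR adjusted P = 0.01083). Each of these calls was lost without the Foxn1Lin male library (EC 1.04, edgeR adjusted P = 0.05951, and TEC 0.97, edgeR adjusted P = 0.06038), and that of TEC also without the library block (0.98, edgeR adjusted P = 0.05858). FB missed the threshold (0.75 ± 0.31, edgeR adjusted P = 0.08741), but passed it without Foxn1Lin female (1.19, edgeR adjusted P = 0.03935) and at a class minimum of 4 UMIs (0.82, edgeR adjusted P = 0.04849). When each library was left out, the FB value ranged from 0.29 to 1.19. EC and TEC could not be told apart (0.24 ± 0.37, edgeR adjusted P = 0.6141, 56.3% of all genes differing), nor could TEC and FB, while FB lay 1.52 ± 0.42 log2 units above mural cells (edgeR adjusted P = 0.02031). Mural cells had 16.1, 8.75 and 24.9 CPM and mesothelial cells 8.39 and 8.80 CPM. Both were called lower than the mean of the others (-1.15 ± 0.38, edgeR adjusted P = 0.0413, and -2.04 ± 0.53, edgeR adjusted P = 0.0157), calls lost when any library was left out for mural cells and without Foxn1Lin female (-3.02) or WT for mesothelial cells, and under some of the other alternatives for both. Empty droplets held 30.4, 57.5 and 88.8 CPM, lowest in Foxn1Lin female and highest in WT male as in EC and FB. With free RNA subtracted, the calls of EC, TEC and mesothelial cells were kept and that of mural cells was lost, at a larger value (-1.44, edgeR adjusted P = 0.09593).

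Cxcl12, the chemokine that retains CXCR4-bearing progenitors, was highest in EC. They had 1232, 666 and 838 CPM (912 ± 290 SD, n = 3). TEC had 380, 99.6 and 275 CPM, FB 277, 130 and 208, mural cells 207, 112 and 141, and mesothelial cells 36.7 and 8.80. EC were above all other classes in every library, and each class from TEC to mural cells was highest in Foxn1Lin female and lowest in Foxn1Lin male. The log2 fold change in EC was 3.19 ± 0.21 (edgeR adjusted P = 5.363e-07) and in mesothelial cells -3.77 ± 0.38 (edgeR adjusted P = 5.036e-05). The mesothelial value was -5.23 without Foxn1Lin female, which left 36 mesothelial barcodes with 4 Cxcl12 UMIs, and -3.31 without WT male. EC lay 2.22 ± 0.29 log2 units above FB (edgeR adjusted P = 0.0001229). FB, TEC and mural cells, in that order, were not called different from their neighbours, and mural lay above mesothelial cells (2.94 ± 0.39, edgeR adjusted P = 0.0003032). The thinned share of positive barcodes was 76.6%, 54.9% and 58.0% in EC, 32.7%, 21.5% and 24.3% in FB, 27.8%, 13.8% and 21.9% in mural cells and 13.0% to 23.1% in TEC. Empty droplets held 480, 229 and 340 CPM, above TEC, FB and mural cells in each library. When free RNA was subtracted, as 10% of each sum in the proportions of the empty droplets, both mesothelial sums fell to 0 UMIs, and against the mean that includes them TEC (2.90, edgeR adjusted P = 0.0002873), FB (3.02, edgeR adjusted P = 0.0004761) and mural cells (2.38, edgeR adjusted P = 0.002122) were called higher, which they were not before. Without scaling of the library sizes TEC were also called higher (0.59, edgeR adjusted P = 0.02738).

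Ccl25, the ligand of the thymocyte receptor CCR9, belonged to TEC, at levels that differed more between libraries than those of any other factor in its top class by ratio. TEC had 1230, 163 and 715 CPM (703 ± 533 SD, n = 3). EC had 73.5, 15.4 and 18.3 CPM, FB 32.1, 16.6 and 20.6, mural cells 27.5, 8.75 and 17.0, and mesothelial cells 45.1 and 19.8. In each library TEC stood clear of the other classes, by the smallest margin in Foxn1Lin male. The log2 fold change in TEC was 4.35 ± 0.25 (edgeR adjusted P = 3.028e-07), and TEC lay 3.92 ± 0.39 above EC (edgeR adjusted P = 1.123e-05). No pair of neighbours below TEC was called different. Ccl25 was called lower in FB (-1.01 ± 0.31, edgeR adjusted P = 0.02994) and mural cells (-1.67 ± 0.35, edgeR adjusted P = 0.003947), calls that were lost without Foxn1Lin female or without the library block for both, and for FB also without WT, at a class minimum of 4 UMIs and with classes set on thinned barcodes. Mesothelial cells missed the threshold (-1.13 ± 0.42, edgeR adjusted P = 0.07247). They were called lower with DESeq2, without Foxn1Lin male, without the expression filter and at class minimums of 1 and 4 UMIs. The thinned share of positive barcodes was 25.5%, 8.07% and 15.5% in TEC and 1.83% to 7.21% in the other classes. In empty droplets Ccl25 stood at 346, 245 and 351 CPM, which exceeded every class other than TEC in all libraries and in Foxn1Lin male also TEC. With free RNA subtracted TEC were still called higher, while every FB and mural sum fell to 0 UMIs and the lower calls of both were lost (edgeR adjusted P = 1.0 for both). Elavl1 overlaps Ccl25 on the other strand.

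Igf1 was high in FB and TEC, and in mesothelial cells in Foxn1Lin female but not in WT male. FB had 140, 184 and 234 CPM (186 ± 46.9 SD, n = 3), TEC 199, 138 and 72.5, and mesothelial cells 270 and 35.2. EC had 16.2, 8.54 and 11.0 CPM and mural cells 33.7, 25.5 and 36.5. FB were the top class in both male libraries, whereas in Foxn1Lin female mesothelial cells led, followed by TEC. Against the mean of the others Igf1 was higher in FB (2.04 ± 0.38, edgeR adjusted P = 0.001693, and 2.74 without Foxn1Lin female) and fell by 3.01 ± 0.50 in EC (edgeR adjusted P = 0.0005797). TEC (0.88 ± 0.38, edgeR adjusted P = 0.07425) and mesothelial cells (1.31 ± 0.50, edgeR adjusted P = 0.07728) missed the threshold. Mural cells missed it as well (-1.23 ± 0.46, edgeR adjusted P = 0.06888). These misses were not firm. Mural cells were called lower with DESeq2, without scaling, without the WT library, with at least 50 barcodes per sum and at a class minimum of 1 UMI. TEC passed with DESeq2 (adjusted P = 0.04263), without scaling, with RLE scaling, without the expression filter and with at least 50 barcodes per sum (edgeR adjusted P = 0.01324, 0.04258, 0.02559 and 0.04725). They also passed without the WT library (1.04, edgeR adjusted P = 0.01283) and without Foxn1Lin female (1.26, edgeR adjusted P = 0.006437). Mesothelial cells passed without the library block (edgeR adjusted P = 0.03149). With at least 50 barcodes per sum or without the WT library, only their Foxn1Lin female sum was left (2.17 and 2.27). Without Foxn1Lin female, only their WT sum was left (-0.71). Mesothelial cells then had no replicate of their own, and no call is read from these settings. FB and mesothelial cells could not be told apart (0.58 ± 0.61, edgeR adjusted P = 0.5747) nor could these and TEC (0.35 ± 0.59, edgeR adjusted P = 0.6745), but TEC lay above mural cells (1.68 ± 0.53, edgeR adjusted P = 0.02288). Mesothelial barcodes of both libraries carried FB markers at the levels given above, and what these add to their Igf1 was not tested. Empty droplets held 95.9, 124 and 120 CPM. Igf1os overlaps Igf1 on the other strand.

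**Figure D2:**
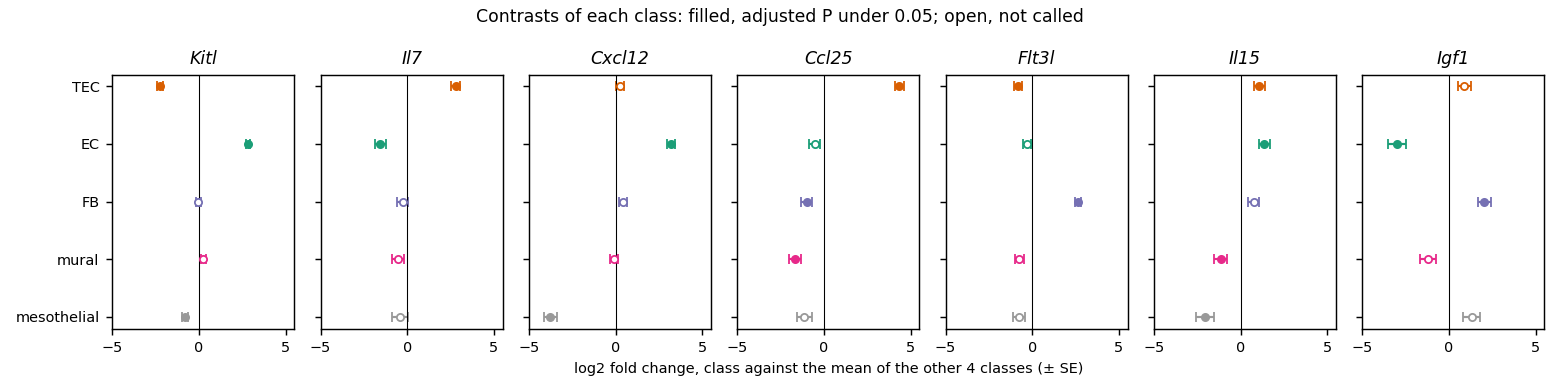
Log2 fold change of each factor in a class against the mean of the other 4 classes, with SE, from edgeR over 14 sums of library and class. Filled points had an adjusted P under 0.05. Kitl and Cxcl12 are called higher in EC, Il7 and Ccl25 in TEC, Flt3l and Igf1 in FB, and Il15 in both TEC and EC.

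The level per class and the number of cells together set which class held the UMIs of a factor in a library. EC held 69.6%, 69.3% and 60.1% of the Kitl UMIs in classed barcodes, and FB 19.0%, 20.3% and 23.5%. TEC held 67.2%, 76.9% and 82.3% of Il7 and 85.4%, 78.7% and 96.3% of Ccl25. For Flt3l, FB held 69.3%, 71.6% and 83.1%. Each of these 4 factors thus had 1 class with most of its UMIs in classed barcodes in all libraries. Barcodes in no class or in more than 1 class are outside these shares. In Foxn1Lin female they held 2428 and 3070 Kitl UMIs, beside 8213 in EC, and 225 and 205 of Il7, beside 459 in TEC. For Flt3l they held 319 and 138, beside 597 in FB, and for Ccl25 1735 and 3610, beside 8002 in TEC. The Cxcl12 UMIs came from EC at 62.3%, 71.0% and 42.3%, with TEC at 13.4%, 8.98% and 33.9%. Il15 changed hands, with TEC first in Foxn1Lin female (37.6%), EC first in Foxn1Lin male (41.9%) and FB first in WT male (43.7%). Of the Igf1 UMIs, FB held 44.1%, 60.8% and 70.3% and TEC 28.4%, 34.0% and 26.1%, and in Foxn1Lin female mesothelial cells held 22.7%. The numbers of cells follow the sort and the digestion of the tissue, so these shares describe the libraries and not the thymus.

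**Figure D3:**
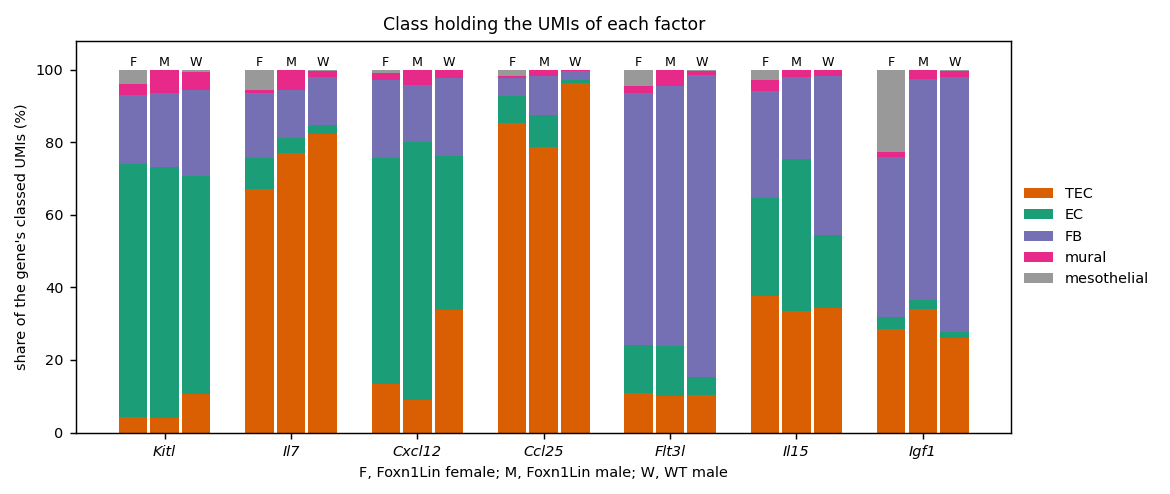
Share of each factor's UMIs in classed barcodes that each stromal class held, 1 bar per library. EC hold most Kitl, TEC most Il7 and Ccl25, and FB most Flt3l in all 3 libraries, and Il15 is divided among TEC, EC and FB.

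Within TEC, Ccl25 and Cxcl12 were highest in cortical cells, with Il7 spread over cortical and Ccl21a-positive cells and Igf1 and Il15 in Aire-positive cells. Subsets were set by further marker UMIs: cortical TEC by Prss16 and Psmb11, a protease and a proteasome subunit of the cortex, and the other subsets by Ccl21a, by Aire with Fezf2, or by Cldn3 with Plet1. The last is called by its genes alone and is not placed in cortex or medulla. Because these rules count raw UMIs, deeper barcodes pass more readily, and cortical TEC had the greatest median depth, 21016, 19894 and 26656 UMIs. There were 62, 16 and 71 cortical barcodes, and the 16 of Foxn1Lin male were too few to enter the test. Each subset was compared with the mean of the other 3 over 12833 genes.

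Cortical TEC had 3587, 478 and 3346 CPM of Ccl25, Aire-positive TEC 121, 260 and 546, and levels were 71.0, 25.1 and 30.3 in Cldn3-positive and 25.4, 13.0 and 18.2 in Ccl21a-positive TEC. The cortical log2 fold change was 5.71 ± 0.45 (edgeR adjusted P = 6.617e-05). Cxcl12 followed the same division, with 1221, 442 and 1136 CPM in cortical TEC and at most 155 CPM in the other subsets (log2 fold change 4.96 ± 0.32, edgeR adjusted P = 2.708e-05). The lower TEC level of both chemokines in Foxn1Lin male went with fewer cortical barcodes (3.76% of its TEC, against 13.4% and 8.19%) and with a lower level within them. The part of each was not tested. The Epcam threshold bore on these levels too. Barcodes with 1 Epcam UMI that met no class rule had 871, 351 and 390 CPM of Ccl25 and 395, 231 and 217 of Cxcl12. TEC with exactly 2 Epcam UMIs had 1051, 19.8 and 730 CPM of Ccl25 and 377, 51.5 and 479 of Cxcl12. What the threshold adds to the low level in Foxn1Lin male was not tested. Il7 was also called higher in cortical TEC, at 120, 127 and 174 CPM (1.02 ± 0.17, edgeR adjusted P = 0.003255), and in Ccl21a-positive TEC, at 102, 143 and 187 CPM (0.95 ± 0.15, edgeR adjusted P = 0.00373). Both Il7 calls were lost without the WT library (edgeR adjusted P = 0.1269 and 0.2103). Kitl was higher in cortical TEC (132, 107 and 160 CPM, 1.79 ± 0.43, edgeR adjusted P = 0.01877). The call was lost with free RNA subtracted, where the value was larger (2.49, edgeR adjusted P = 0.06593). It was also lost without Foxn1Lin female (1.74) and without WT (1.72). The Kitl levels of cortical TEC lay below those of empty droplets. In all, 5 of the 7 factors were called in the cortical contrast, 4 higher and 1 lower, where 18.0% of all genes were called. The lower one was Igf1 (-3.89 ± 0.73, edgeR adjusted P = 0.00596), a call lost without Foxn1Lin female (-2.92, edgeR adjusted P = 0.0524) and at -5.18 without WT.

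Aire-positive TEC, which display tissue antigens to thymocytes, had 441, 413 and 211 CPM of Igf1, against 4.19, 6.70 and 8.47 CPM in cortical TEC (Aire contrast 3.39 ± 0.42, edgeR adjusted P = 0.0001465). Their Il15 was at 137, 125 and 198 CPM and no other subset exceeded 72.0 CPM in any library (2.12 ± 0.23, edgeR adjusted P = 6.707e-05). They were low in Cxcl12 (16.6, 5.61 and 9.73 CPM, -3.96 ± 0.39, edgeR adjusted P = 3.598e-05) and Il7 (28.3, 32.5 and 37.1 CPM, -1.83 ± 0.17, edgeR adjusted P = 2.554e-05). Ccl25 and Flt3l were called higher at 1.29 ± 0.41 and 0.98 ± 0.36 (edgeR adjusted P = 0.02804 and 0.04729). Both calls were lost without Foxn1Lin male and without WT (Ccl25 0.60). They were also lost with free RNA subtracted, where the values were larger (4.71 and 2.02, edgeR adjusted P = 0.0503 and 0.05205). The Flt3l call was lost with DESeq2 and without scaling too. Ccl25 was at 1.97 without Foxn1Lin female. With 6 of 7 factors called, the Aire contrast stood beside 43.9% of all genes. The Ccl21a contrast called 2 factors, Il7 higher and Ccl25 lower (-4.31 ± 0.59, edgeR adjusted P = 0.001522), beside 14.6% of all genes. With free RNA subtracted the Ccl25 call was lost at a larger value (-11.10, edgeR adjusted P = 0.05861). The Cldn3 contrast called 3, all lower (Ccl25 -2.69 ± 0.50, Cxcl12 -1.32 ± 0.34 and Il15 -0.95 ± 0.28), beside 18.2% of all genes. Without the WT library the values were -2.33, -1.61 and -0.78, and none passed the threshold. Without Foxn1Lin male the calls of Cxcl12 and Il15 were lost (-1.50 and -1.06, edgeR adjusted P = 0.05252 and 0.1069). Cxcl12 ranged from -1.61 to -0.85 when each library was left out. None passed with free RNA subtracted, where Ccl25 was at -2.49, Cxcl12 at -0.42 (edgeR adjusted P = 0.9103) and Il15 at -1.08 (edgeR adjusted P = 0.07155).

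**Figure D4:**
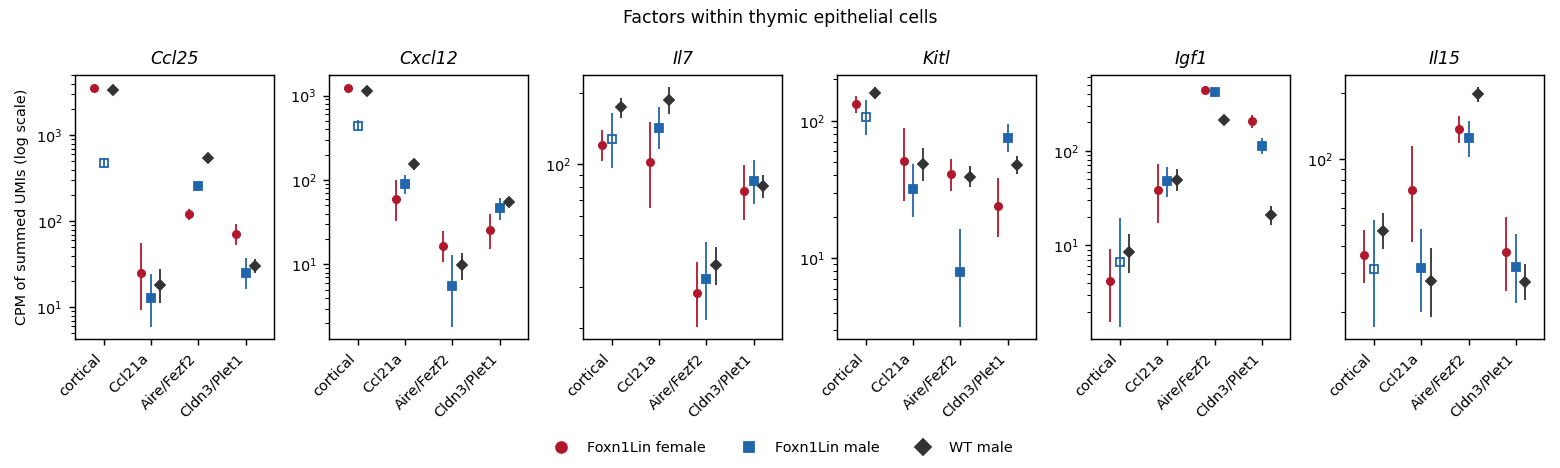
CPM of summed UMIs (log axis) in 4 TEC subsets, 1 point per library with 95% exact Poisson intervals. Open points are sums of fewer than 20 barcodes, which did not enter the test. Ccl25 and Cxcl12 peak in cortical TEC and Igf1 and Il15 in Aire-positive TEC in each library.

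Because the 2 chemokines were high together in cortical TEC, the 250 bases before their annotated starts are shown, from RefSeq on GRCm38.p6. Capitals mark GACGC or its reverse complement GCGTC, the core of the FOXN1 motif, searched on both strands and chosen after the sequences were seen. The window of the downstream Ccl25 start lies inside the gene, between annotated exons. The upstream Ccl25 start is not shown, since its window lies in an annotated exon. RefSeq promoters matched 5 of the 7 factors, and Il7 and Il15 had none in the table used.
Cxcl12, chr6:117168285-117168534, + strand: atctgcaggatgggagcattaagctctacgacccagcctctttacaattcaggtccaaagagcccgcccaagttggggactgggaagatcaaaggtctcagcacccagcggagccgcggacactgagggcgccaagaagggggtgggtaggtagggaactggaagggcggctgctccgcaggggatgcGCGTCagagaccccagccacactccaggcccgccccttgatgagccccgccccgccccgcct
Ccl25, chr8:4349338-4349587, + strand: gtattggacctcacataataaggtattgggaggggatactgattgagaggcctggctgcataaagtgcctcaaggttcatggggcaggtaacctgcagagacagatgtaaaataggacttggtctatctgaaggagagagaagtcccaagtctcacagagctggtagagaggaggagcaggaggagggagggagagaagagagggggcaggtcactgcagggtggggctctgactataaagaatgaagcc
The core occurred once in the Cxcl12 window and 0 times in this Ccl25 window, and once in the window of the upstream Ccl25 start. It also had 1 match in the window of Kitl, which was lowest in TEC, and 0 in those of Flt3l and Igf1. Among the 250-base windows of all 32851 RefSeq promoters, 22.6% held it, so a match describes the letters and no binding.

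Within EC, Kitl was high in every subset and Cxcl12 and Il15 were opposed. Arterial EC were set by Gja5, Hey1 and Sox17, venous EC by Vwf, Selp and Ackr1, and capillary EC by Gpihbp1 and Rgcc, and 11043 genes were tested. Kitl stood at 1077, 805 and 1200 CPM in arterial, 944, 1156 and 1231 in capillary and 643, 949 and 945 in venous EC, and no subset was called. Capillary EC had 1459, 1202 and 1265 CPM of Cxcl12, which stood at 237, 71.6 and 134 CPM in venous and at 907, 255 and 931 CPM in arterial EC. It was called higher in capillary (1.90 ± 0.19, edgeR adjusted P = 3.139e-06) and lower in venous EC (-2.71 ± 0.22, edgeR adjusted P = 4.09e-08). Il15 ran the other way, at 114, 117 and 133 CPM in venous and 25.3, 38.5 and 55.4 CPM in capillary EC (venous 1.38 ± 0.20, edgeR adjusted P = 4.433e-05, capillary -1.45 ± 0.22, edgeR adjusted P = 0.0001606). Venous barcodes numbered 67, 201 and 223 and capillary ones 981, 240 and 259. The lower Il15 of whole EC in Foxn1Lin female stood beside both the smallest venous share and the lowest capillary level, and the part of each was not tested. The venous contrast called 3 factors beside 21.2% of all genes, the other being Igf1 at 7.63, 12.4 and 14.5 CPM, whose arterial sums in the tested libraries held 0 UMIs. The Igf1 call was lost with DESeq2, without scaling and without Foxn1Lin male or WT. The capillary contrast called 2 beside 10.9%. In the arterial contrast 0 factors were called by edgeR and by DESeq2 (2 at an unadjusted P of 0.05), beside 4.5% of all genes. Cxcl12 missed the threshold there (0.81 ± 0.23, edgeR adjusted P = 0.05612) and passed it without scaling (0.94, edgeR adjusted P = 0.03116), without Foxn1Lin female (1.06, edgeR adjusted P = 0.01217) and without Foxn1Lin male (0.80, edgeR adjusted P = 0.02662), with 0.46 without WT male. Arterial EC were 21, 11 and 36 barcodes, and 2 libraries entered that test.

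Among the FB subsets, Flt3l and Il15 were high in cells with Ptn and Postn, and Cxcl12 and Igf1 in cells with Smoc2 and Dpep1. Barcodes that met more than 1 subset rule, 41.8%, 34.8% and 38.6% of FB, were dropped. FB that met no subset rule had more Cxcl12 than the Smoc2 subset in Foxn1Lin female and WT male, with values given under other observations. Flt3l was at 119, 49.7 and 138 CPM in the Ptn subset and 26.4, 23.6 and 76.2 in the Smoc2 subset (Ptn contrast 1.98 ± 0.37, edgeR adjusted P = 0.006775). Il15 was at 56.6, 31.9 and 109 CPM and at 16.9, 15.7 and 65.9 CPM (1.50 ± 0.35, edgeR adjusted P = 0.02009). In both subsets the WT library was the highest for these factors. Cxcl12 was at 347, 235 and 320 CPM in the Smoc2 subset and 161, 107 and 175 in the Ptn subset (Smoc2 contrast 1.34 ± 0.16, edgeR adjusted P = 0.001697). Igf1 was at 154, 352 and 440 CPM and at 93.3, 99.1 and 164 CPM (1.12 ± 0.24, edgeR adjusted P = 0.0301), the call being lost without Foxn1Lin male. The Ptn contrast called 4 factors beside 14.5% of 11985 genes, the others being Igf1 lower (-0.88 ± 0.25, edgeR adjusted P = 0.04211) and Il7, whose levels were 12.2, 13.8 and 22.6 CPM in the Ptn subset against 9.93, 4.49 and 11.0 CPM in the Smoc2 subset and 0 UMIs in the Pi16 subset. The main Il7 value was 4.66 ± 1.32. The Igf1 and Il7 calls were lost without Foxn1Lin male and without WT. They were also lost with Scrublet doublets removed, at -0.91 and 4.50 (edgeR adjusted P = 0.05197 and 0.05743). With free RNA subtracted they were lost at -0.91 and 4.79 (edgeR adjusted P = 0.05859 and 0.1311). The Il7 call was lost with DESeq2 too. The Smoc2 contrast called 2 beside 4.39%. Without Foxn1Lin female the Pi16 subset dropped out, so that both contrasts became the comparison of Ptn with Smoc2. The Ptn values were then 0.92 for Flt3l, 0.81 for Il15, -0.99 for Cxcl12 and -1.61 for Igf1, these and Il7 were called in both contrasts, and the genes called in the Smoc2 contrast went from 526 to 1377. A subset with Pi16 and Dpp4 reached 20 barcodes in Foxn1Lin female only (42, 5 and 9). With 1 library its contrast, where 8.14% of all genes passed on the spread of the other subsets, has no replicate of its own, and no call of a factor is read from it.

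Within mural cells, pericytes had more Cxcl12 than smooth muscle cells, 373, 214 and 349 CPM against 76.8, 49.6 and 75.5 CPM. The log2 fold change of smooth muscle cells against pericytes was -2.04 ± 0.21 (edgeR adjusted P = 0.0003529). It was the 1 call among 5 factors tested, beside 19.9% of 7600 genes. Il7 and Flt3l did not pass the expression filter there.

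**Figure D5:**
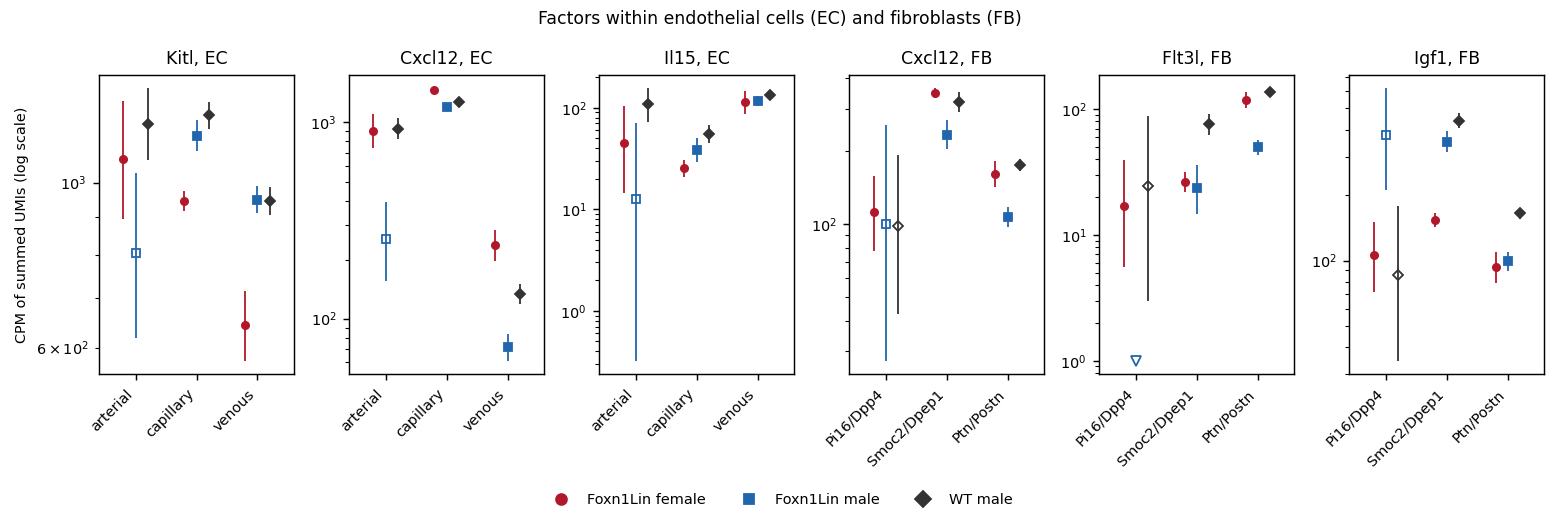
CPM of summed UMIs (log axis) in EC and FB subsets, 1 point per library with 95% exact Poisson intervals. Open points are sums of fewer than 20 barcodes, and the triangle is a sum with 0 UMIs, drawn at 1 CPM. Cxcl12 is lowest and Il15 highest in venous EC in each library, and Flt3l is highest in the Ptn subset of FB in each library.

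Receptors and scavengers of the factors were measured in the same sums. Of 13 tested, 7 were higher and 2 lower in TEC, 6 higher and 1 lower in EC, 3 higher and 1 lower in FB, 2 higher and 2 lower in mural cells and 1 higher and 4 lower in mesothelial cells. Of all genes tested 32.2% were higher in TEC, 23.3% in EC, 18.9% in FB, 17.1% in mural and 13.0% in mesothelial cells, and 23.1%, 20.1%, 13.3%, 12.1% and 11.5% were lower. The median log2 fold change of the 13 was 1.49 in TEC, 1.43 in EC, 0.20 in FB, -0.25 in mural and -1.70 in mesothelial cells, where the medians of all genes were 0.12, -0.01, -0.01, -0.02 and -0.17. Kit, the KIT ligand receptor, was at 48.8, 37.3 and 50.5 CPM in EC (log2 fold change 5.02 ± 0.22, edgeR adjusted P = 6.772e-08) and at 32.0, 18.3 and 22.7 CPM in TEC (3.38 ± 0.24, edgeR adjusted P = 9.447e-07). EC thus carried both Kitl and its receptor transcript. Ackr4, a scavenger of CCL25 and CCL21, was at 31.0, 48.2 and 40.8 CPM in TEC (5.15 ± 0.50, edgeR adjusted P = 8.191e-06). In EC the receptor chain Il2rg, shared by the receptors of interleukins 7 and 15, was also higher (73.4, 138 and 109 CPM, 3.89 ± 0.32, edgeR adjusted P = 3.486e-06). Ackr3, a scavenger of CXCL12, was higher in FB (1.43 ± 0.22, edgeR adjusted P = 0.0004755) and in mesothelial cells (1.61 ± 0.29, edgeR adjusted P = 0.002266), and Il15ra, which presents interleukin-15, in FB (1.14 ± 0.14, edgeR adjusted P = 0.0001214) and mural cells (0.77 ± 0.15, edgeR adjusted P = 0.002888). Kit and Il2rg are also transcripts of blood cells, whose markers stood at 74.9 to 207 CPM in EC and at 448 to 815 CPM in TEC, and their part was not tested.

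Among 11 tested genes of the IGF axis, the binding proteins and proteases that hold or free IGF1, 5 were higher in mesothelial cells and 4 in FB. In mural cells 3 were higher and 1 lower, in TEC 3 and 5, and in EC 2 and 7. Of all genes 13.0% were higher in mesothelial cells, 18.9% in FB, 17.1% in mural cells, 32.2% in TEC and 23.3% in EC, and 12.1% were lower in mural cells, 23.1% in TEC and 20.1% in EC. The counts of higher genes in TEC and EC were thus no larger than the background. The median log2 fold change was -0.51 in TEC, -2.01 in EC, -0.07 in FB, 0.41 in mural and 1.27 in mesothelial cells. Igfbp6 was at 3848 and 2344 CPM in mesothelial cells (6.68 ± 0.72, edgeR adjusted P = 7.611e-05) and Igfbp5 at 5630 and 5467 CPM (3.93 ± 0.56, edgeR adjusted P = 0.0004764). FB had Pappa, a protease that cleaves IGF binding proteins, at 100.2, 299 and 134 CPM (3.84 ± 0.37, edgeR adjusted P = 2.268e-05). In TEC Igfbp7 stood at 104, 66.2 and 37.1 CPM (-4.67 ± 0.34, edgeR adjusted P = 1.122e-06).

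Other factors of the thymic niche were counted in the same way. Of 15 tested, 9 were higher and 2 lower in FB, 6 and 5 in TEC, 4 and 4 in mesothelial cells, 3 and 6 in EC, and 2 and 4 in mural cells. Of all genes 18.9% were higher and 13.3% lower in FB, 32.2% and 23.1% in TEC, 13.0% and 11.5% in mesothelial cells, 23.3% and 20.1% in EC, and 17.1% and 12.1% in mural cells, so the counts of higher genes in TEC, EC and mural cells were near the background. The median log2 fold change was 1.89 in FB, 0.48 in TEC, 0.18 in mural cells, -0.21 in EC and -2.37 in mesothelial cells. FB had Fgf10 (150, 124 and 205 CPM, 6.24 ± 0.46, edgeR adjusted P = 3.553e-06) and Fgf7 (46.1, 37.2 and 35.2 CPM, 5.29 ± 0.32, edgeR adjusted P = 1.334e-06), which act on epithelium, beside their Flt3l. TEC had Foxn1 (93.4, 45.7 and 67.4 CPM, 6.56 ± 0.35, edgeR adjusted P = 1.826e-07) and the hormone Fgf21 (50.1, 87.3 and 70.1 CPM, 5.51 ± 0.58, edgeR adjusted P = 1.517e-05). EC had the Notch ligand Dll4 (107, 99.2 and 103 CPM, 5.24 ± 0.48, edgeR adjusted P = 7.624e-06). Mural cells had the cytokine Il6 (167, 354 and 657 CPM, 3.67 ± 0.29, edgeR adjusted P = 3.306e-06). Of 4 enzymes that cut factors from the surface or inactivate them, Adam10 and Adam17 were higher and Adam33 and Dpp4, which trims CXCL12, lower in EC. In FB 3 were higher, Adam33, Dpp4 and Adam17, and Adam10 was lower. In TEC 3 were lower, in mural cells 2 were lower, and in mesothelial cells Dpp4 and Adam33 were higher. The shares of all genes were those just given, and 4 genes set nothing apart from them.

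For each factor the 3 genes most like it were found by Pearson's r of log2(CPM + 1) over the 14 sums of library and class, each value minus its library's mean, among 7439 genes of at least 20 CPM on average. The sums share libraries and depth, so r is a description. Kitl ran with Slc9a3r2 (r = 0.99), Abcg2 (0.98) and Fli1 (0.97), and Cxcl12 with Lyn (0.97), Elk3 (0.96) and Cmip (0.96). Ccl25 ran with Rtraf (0.98), Gp2 (0.98) and Prss16 (0.98), Il7 with Poglut1 (0.97), Zc3h7b (0.96) and Macrod2 (0.96), and Flt3l with Cxcl14 (0.97), Lum (0.95) and Dpep1 (0.93). Il15 was nearest to Fgd6 (0.97), Trappc8 (0.96) and Fscn1 (0.95) and Igf1 to Tm7sf3 (0.97), Pla2g4a (0.95) and Pdxk (0.95).

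By GENCODE vM21 on GRCm38, Kitl lies at chr10:100015630-100100416 and Igf1 at chr10:87858265-87937042, both on the + strand. Cxcl12 is at chr6:117168535-117181367 and Ccl25 at chr8:4325210-4360020, on the + strand, Il15 at chr8:82331632-82403222, Il7 at chr3:7569994-7613760 and Flt3l at chr7:45129788-45136432, on the - strand. Kitl, Cxcl12, Flt3l and Il15 overlapped no other counted gene.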

How the data were processed

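The authors sorted CD45- thymus cells, prepared 10x Genomics 3′ single-cell libraries and deposited UMI count matrices, filtered and unfiltered. Per the file headers these were made with cellranger 7.0.1 (7.01 in the submitters' processing notes). The counts are whole numbers, not normalized, and 0 columns were left unused. The filtered libraries held 53366016, 33386621 and 61258534 UMIs, with a further 26.5%, 12.9% and 9.46% of UMIs outside called barcodes. The precision of each level is the 95% exact Poisson interval of its UMIs.

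Barcodes with 1000 genes or fewer and at least 20% mitochondrial UMIs were removed (138, 149 and 222). Doublets were not removed in the main values, apart from barcodes in more than 1 class. Leaving out barcodes with a Scrublet score (scanpy 1.11.5) at or above that of the top 3.9%, tied barcodes included (364, 159 and 224), was an alternative. UMIs were summed per library and class or subset, and sums of at least 20 barcodes entered edgeR 4.0.16 (R 4.3.3) with TMM, filterByExpr, glmQLFit, glmQLFTest and the library as a block, called at an adjusted P of 0.05. The SE was derived from the quasi-likelihood F. Subset rules read raw UMIs, and barcodes in more than 1 subset were dropped. Shares of positive barcodes were taken after thinning to 2000 UMIs, which left out at most 297 barcodes of a class. Empty droplets were barcodes of 133 to 533, 21 to 85 and 24 to 95 UMIs. DESeq2 1.42.0, other scalings and filters, other class thresholds, subtraction of free RNA, thinned classes and leaving out each library were the alternatives. The test was also run on simulated counts with a shared profile for all classes, a fixed spread and some genes changed in TEC. That setting is simpler than these data, and no result is read from it. The 7 factors and the gene lists were chosen with earlier results of these data known. At most 4 called genes of each list with the largest change were eligible to be named.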

Additional observations from a re-analysis of the deposited data

Results flagged for a closer look

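Il15 changed its order between libraries. The log2 ratio of EC to TEC levels was 0.53 in WT male and -0.996 in Foxn1Lin female, so EC lay above TEC in one library and below it in the other. Igf1 likewise changed between FB and mesothelial cells, with a log2 ratio of FB to mesothelial levels of 2.73 in WT male, from 36 mesothelial barcodes, and -0.945 in Foxn1Lin female, from 338. With 1 library per group neither difference between libraries was tested.

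Ccl25 was present outside called cells. In the empty droplets of Foxn1Lin male it stood at 245 CPM, above the 163 CPM of TEC in the same library.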

How the results depend on the processing

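The contrasts of the leading class stayed on their side of the threshold in 16 of 16 alternatives for Il7 in TEC (2.53 to 3.52), Ccl25 in TEC (3.19 to 12.48), Kitl in EC (2.69 to 3.01), Cxcl12 in EC (3.02 to 6.01), Flt3l in FB (2.25 to 3.26) and Igf1 in FB (1.51 to 3.19). For Il15 in EC it was 15 of 16, with 1.04 to 1.85 when each library was left out. Of all contrasts of the factors under the alternatives, 957 kept their call or stayed uncalled, 66 lost the call, 40 gained it and 2 changed sign with a call. Uncalled contrasts changed sign too, among them Igf1 in mesothelial cells (-0.71 to 2.27 when each library was left out), Cxcl12 in TEC (-0.06 to 0.57) and Kitl in FB (-0.19 to 0.06). Cxcl12 in mural cells became 2.38 with free RNA subtracted (edgeR adjusted P = 0.002122), a setting in which TEC and FB were also called higher (2.90 and 3.02), and Il7 in the Smoc2 subset of FB became -1.20 without Foxn1Lin female (edgeR adjusted P = 0.03502, leave-one-out range -1.20 to 3.54), a setting in which only the Ptn subset remained for comparison. In the first, both mesothelial sums of Cxcl12 had fallen to 0 UMIs, so the size of these values, and of the highest for Ccl25 and Cxcl12 above, depends on the prior count of the fit.

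When each library was left out, genes called ranged from 4716 to 6186 in EC (7636 with all), 3223 to 4126 in FB (5651), 2686 to 4240 in mural cells (5126), 1820 to 3555 in mesothelial cells (4306), 437 to 1976 in cortical TEC (2306), 227 to 1392 in Ccl21a-positive TEC (1871), 2941 to 5347 in Aire-positive TEC (5631), 731 to 2054 in Cldn3-positive TEC (2336), 231 to 531 in arterial EC (497), 363 to 1377 in Smoc2 FB (526) and 833 to 1719 between mural subsets (1513). DESeq2 called 328 genes in Smoc2 FB and 1063 in Ptn FB (1736 with edgeR). A class left with 1 library was assumed to vary like the others, and the Pi16 contrast could not be fitted without Foxn1Lin female. Without thinning, mean shares of positive barcodes rose, to 87.8% for Kitl in EC and 50.5% for Il7 in TEC. No paired analysis was possible because the 3 groups have 1 library each and share 1 replicate number. That holds for the groups only, since classes were compared within libraries. Without the library block the calls of Ccl25 in FB and mural cells and of Il15 in TEC and mural cells were lost, and that of Igf1 in mesothelial cells was gained.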

Other observations

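Barcodes that met no class rule, 2925, 703 and 992 of the libraries, had UMIs of every factor. Their Ccl25 stood at 189, 72.2 and 177 CPM, below the 346, 245 and 351 CPM of empty droplets, and their Igf1 at 96.4, 108 and 161 CPM, beside 95.9, 124 and 120 CPM in empty droplets. Among FB, the barcodes that met none of the subset rules (156, 45 and 139) had 889, 239 and 629 CPM of Cxcl12. This was above the Smoc2 subset in Foxn1Lin female and WT male and close to it in Foxn1Lin male. Among mural cells, those that met no subset rule had 7.07, 70.0 and 73.0 CPM of Il7, from 1, 21 and 15 UMIs.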
